A study of Mus musculus with 43 samples.

Results

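The immediate early genes described here are 10 genes that neurons and many other cells transcribe within minutes of a stimulus: Fos, Fosb, Junb, Egr1, Egr2, Arc, Npas4, Nr4a1, Ier2 and Dusp1. They were taken by symbol from a table of 42349 genes and gene sets, and all 10 had an entry of their own. The table came from RNA sequencing of brain, liver, skeletal muscle and inguinal white adipose tissue (WAT) of female mice culled by cervical dislocation at 15 months of age. The 4 groups were wild type Irs1+/+ mice fed ad libitum (WTAL), Irs1-/- mice fed ad libitum (KOAL), wild type mice on 30% dietary restriction (WTDR) and Irs1-/- mice on 30% dietary restriction (KODR), the restriction having lasted 12 months. Irs1 encodes insulin receptor substrate 1, an adaptor that passes the insulin signal from its receptor into the cell, and the knockout is global. WTAL had 2 libraries in each tissue and the other groups 3, except WTDR in WAT, for which the labels list 2. All mice ate the same chow under the same light cycle, and restricted mice received their food once a day in the late afternoon. The strain background, the part of the brain taken and the hour of the cull were not given in the sources used here, and no label ties a library to a mouse.

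Values are group FPKM (fragments per kilobase of transcript, scaled to the fragments mapped in the library) with the 95% confidence interval that the authors' software gave for each group. No value per library was used, so the spread between mice is seen only through these intervals, which rest on 2 or 3 libraries. A gene was called in a comparison when its adjusted p was under an FDR of 10% over all entries tested in that tissue and comparison. The knockout labels were checked first against Irs1 itself. Its brain FPKM was 2.47 in WTAL, 3.49 in KOAL, 1.62 in WTDR and 4.14 in KODR, so that in brain it was not lower in the libraries labelled knockout. KODR brain exceeded WTDR by 1.35 ± 0.40 (SE) on the log2 scale, with an adjusted p of 0.0766 (Wald test). Liver and muscle likewise showed no lower Irs1 in the libraries labelled knockout. In WAT it was at 2.47 in WTAL, 5.37 in KOAL, 6.56 in WTDR and 2.58 in KODR, so that KODR was 0.393-fold of WTDR (unadjusted p of 0.0142) and KOAL 2.18-fold of WTAL (unadjusted p of 0.0133), and neither passed adjustment. Groups are therefore named by their labels throughout, and every direction below is between labelled groups.

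Immediate early genes need no new protein for their transcription. In neurons, calcium entry and kinase signalling act on factors that already sit at these genes, among them CREB, which binds the cAMP response element (CRE), and serum response factor, which binds the CArG box. Most members encode transcription factors: Fos, Fosb and Junb are subunits of AP-1, Egr1 and Egr2 are zinc finger factors, Npas4 is a neuronal bHLH-PAS factor and Nr4a1 is an orphan nuclear receptor. Arc encodes a synaptic protein that takes part in removal of AMPA receptors, Ier2 a nuclear protein, and Dusp1 a phosphatase that switches off MAP kinases. Because the transcripts appear and decay quickly, their level in dissected tissue is known to follow the last minutes before death, including handling, as well as the state of the animal.

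The DNA just upstream of the start sites is shown for 5 members to give the letters that the factors named above could read. RefSeq start sites of the GRCm38 build were matched for 7 of the 10 members. Each window of 220 bases runs from 250 to 31 bases before the start, 5′ to 3′ on the strand of the gene, and capitals mark the CRE half-site TGACG, which reads as CGTCA where it lies on the other strand. The windows are chr12:85473640-85473859 (+) for Fos, chr7:19310076-19310295 (-) for Fosb, chr8:84978779-84978998 (-) for Junb, chr15:101266596-101266815 (+) for Nr4a1 and chr17:26508503-26508722 (-) for Dusp1.
Fos: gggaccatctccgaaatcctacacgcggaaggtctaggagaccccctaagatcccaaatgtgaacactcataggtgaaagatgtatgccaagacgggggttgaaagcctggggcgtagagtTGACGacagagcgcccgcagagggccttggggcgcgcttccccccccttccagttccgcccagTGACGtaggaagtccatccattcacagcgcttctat
Fosb: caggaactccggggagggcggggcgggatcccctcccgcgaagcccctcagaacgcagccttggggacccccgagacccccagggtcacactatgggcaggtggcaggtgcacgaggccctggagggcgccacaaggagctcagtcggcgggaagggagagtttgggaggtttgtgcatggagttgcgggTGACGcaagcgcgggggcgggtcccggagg
Junb: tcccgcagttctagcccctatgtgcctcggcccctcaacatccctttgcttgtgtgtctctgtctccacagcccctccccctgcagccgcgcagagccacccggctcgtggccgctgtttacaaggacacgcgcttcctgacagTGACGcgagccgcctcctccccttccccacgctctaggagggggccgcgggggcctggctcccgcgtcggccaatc
Nr4a1: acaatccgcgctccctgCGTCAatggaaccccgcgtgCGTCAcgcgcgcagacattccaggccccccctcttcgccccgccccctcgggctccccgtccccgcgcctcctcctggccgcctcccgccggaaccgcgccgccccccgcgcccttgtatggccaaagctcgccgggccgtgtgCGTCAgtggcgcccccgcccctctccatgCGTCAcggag
Dusp1: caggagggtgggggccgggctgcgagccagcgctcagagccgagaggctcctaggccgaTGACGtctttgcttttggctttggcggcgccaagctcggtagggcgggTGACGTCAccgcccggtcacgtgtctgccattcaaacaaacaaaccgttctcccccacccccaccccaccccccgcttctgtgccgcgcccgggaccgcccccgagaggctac

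On either strand, TGACG occurred in at least 1 window of 7 of the 7 members, against 16.6% of the 27025 genes with a window and 14.8% of the 32851 windows. Nr4a1 held 4 half-sites, all written CGTCA, with their first bases 233, 213, 69 and 40 bases before the start. Fos held 2, at 129 and 66 bases, and Fosb and Junb held 1 each, at 60 and 106 bases. Dusp1 held the full element TGACGTCA, which begins 143 bases before the start, counts as a pair of overlapping half-sites and was present in 1.30% of the genes, beside another half-site at 191 bases. Egr2 and Npas4 also held half-sites (2 in 3 of the 5 windows of Egr2, and 2 in that of Npas4). All 220 bases of the Npas4 window lay in an exon annotated by GENCODE on the same strand. So did 17 bases of the Dusp1 window and 31 of the Egr2 window at chr10:67537680-67537899. Of these 7 members Egr2 alone held a CArG box in its windows, found in 1.44% of the genes. None of the 7 held the AP-1 site TGACTCA or TGAGTCA, found in 4.64%. A match says only that these letters lie in the window, and the lack of one says nothing about DNA outside it. Egr1, Arc and Ier2 had no window.

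The 10 genes differed in where they were expressed. Arc, Npas4 and Fosb had by far their highest levels in brain, with group FPKM of 24.6 to 66.3, 1.09 to 5.67 and 1.56 to 3.89 there. In the other 3 tissues Arc stayed between 0.0169 and 0.879 and Fosb between 0.0302 and 0.271, and Npas4 was listed at 0 in liver in every group and reached at most 0.230 in WAT. Egr2 followed a similar pattern at lower levels, 0.308 to 3.04 in brain, but its lowest brain group overlapped the range in WAT (0.316 to 1.20). Fos was highest in brain as well, at 11.8 to 18.1, above 2.38 to 7.41 in muscle, with muscle, WAT and liver overlapping.

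The remaining members were expressed in every tissue, and brain did not lead for most of them. Nr4a1 was highest in skeletal muscle, at 54.3 to 96.4, with brain next at 9.55 to 47.9, and the ranges did not meet. Ier2 was highest in liver, at 35.6 to 69.3, then in WAT at 16.1 to 25.6, and brain (7.45 to 9.92) and muscle (5.16 to 8.89) overlapped at the bottom. Junb reached 30.4 to 63.3 in liver and 22.1 to 106 in brain, which overlapped, and both lay above WAT and muscle. Dusp1 was the one member with its lowest level in brain, at 5.73 to 13.4, though the ranges of all neighbouring tissues overlapped. Egr1 ran from 18.1 to 54.4 in brain, 4.92 to 20.8 in liver, 3.54 to 5.03 in WAT and 1.21 to 2.45 in muscle.

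**Figure D1:**
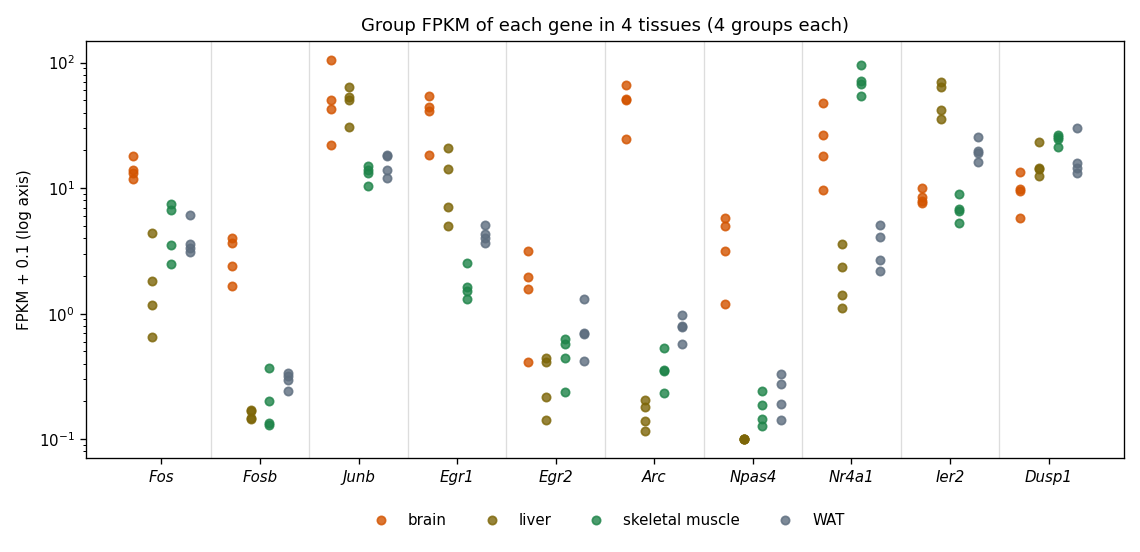
Group FPKM plus 0.1 (log axis) of the 10 genes in brain, liver, skeletal muscle and WAT, with 1 point for each of the 4 groups in a tissue. Arc, Npas4 and Fosb stand far higher in brain than elsewhere, whereas Nr4a1 is highest in muscle and Ier2 in liver, and the 4 liver points of Npas4 lie at 0.1 because its FPKM there is 0.

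In brain, WTAL was the lowest of the 4 groups for 10 of the 10 members, and KOAL was the highest for 7. WTDR was the highest for Npas4, and KODR for Fosb and Ier2. The summed FPKM of the 10 genes was 102 in WTAL, 325 in KOAL, 212 in WTDR and 195 in KODR. WTAL is a group of 2 libraries, and the 3 comparisons made with it share those libraries, so their agreement in direction is not repeated evidence.

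**Figure D2:**
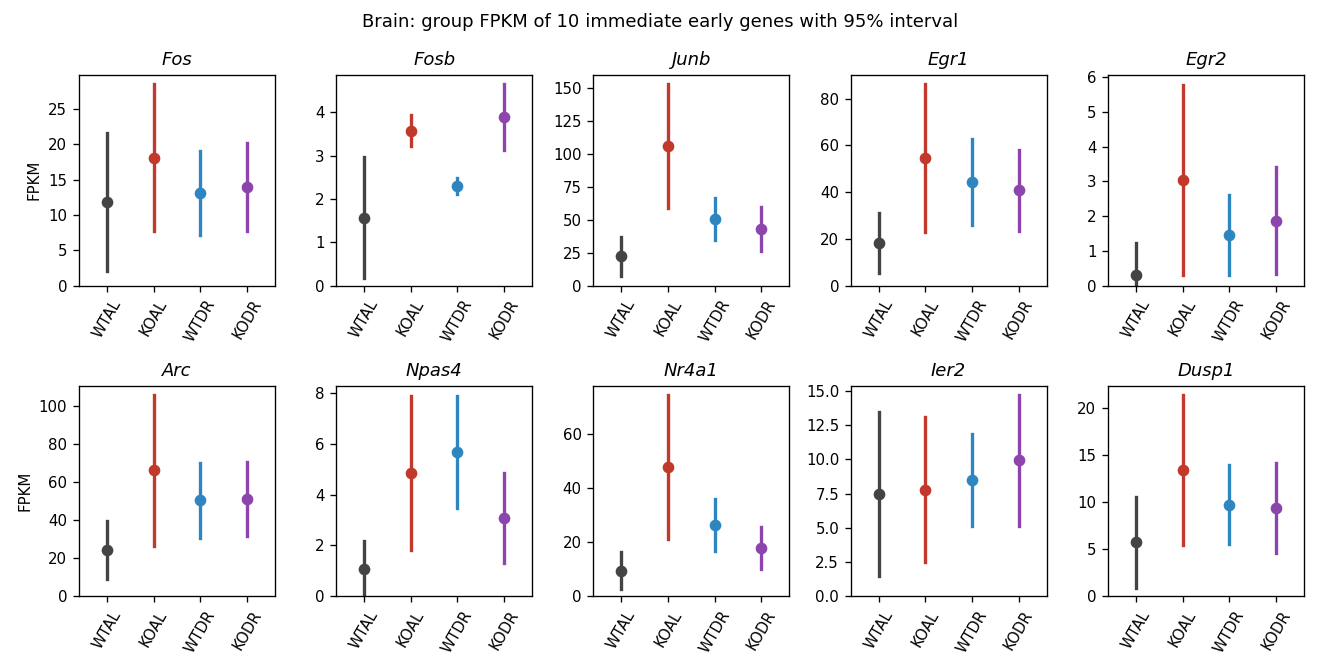
FPKM of each gene in the 4 brain groups (points), with the 95% interval of each group (vertical lines). WTAL is lowest in all 10 panels, while most intervals overlap, and the intervals of Fosb in KOAL, WTDR and KODR are far shorter than those of the other genes.

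Among the AP-1 subunits, Junb (GRCm38 chromosome 8, 84976909 to 84978748, minus strand, 1 exon) showed the clearest pattern. Its brain FPKM was 22.1 in WTAL (interval 7.35 to 36.9), 106 in KOAL (58.6 to 153), 50.2 in WTDR (34.4 to 66.1) and 42.8 in KODR (25.8 to 59.8). KOAL stood apart from WTAL, whereas the intervals of the other pairs met. Junb rose 4.77-fold in KOAL relative to WTAL, by 2.25 ± 0.58 (SE) on the log2 scale, with an adjusted p of 0.0532 (Wald test with Benjamini-Hochberg adjustment). The call was lost when all differences were centred on their median (adjusted p of 0.109) and when a t distribution was used (adjusted p of 1.00). Junb was 2.27-fold higher in WTDR than in WTAL (log2 1.18 ± 0.53, unadjusted p of 0.0263), which did not pass adjustment.

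Fos itself (chromosome 12, 85473890 to 85477273, plus strand, 4 exons) differed little between brain groups. Its FPKM was 11.8 in WTAL, 18.1 in KOAL, 13.1 in WTDR and 13.9 in KODR, and every interval overlapped every other. The 95% interval of the log2 difference between KOAL and WTAL ran from -0.81 to 2.04, so a fold as large as that of Arc could not be told from none.

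Fosb (chromosome 7, 19302721 to 19310045, minus strand, 4 exons) had the lowest brain level of the AP-1 members. Its FPKM was 1.56 in WTAL (interval 0.165 to 2.96), 3.57 in KOAL (3.21 to 3.93), 2.29 in WTDR (2.10 to 2.48) and 3.89 in KODR (3.14 to 4.64). Both KO groups lay above both WT groups, and the groups were separate in all pairs but WTAL with WTDR and KOAL with KODR. KODR exceeded WTDR 1.70-fold, by 0.76 ± 0.15 (SE) on the log2 scale, with an adjusted p of 0.000214 (Wald test). This call rests on unusually short intervals: the SD was 5.02% of the FPKM in KOAL, 4.06% in WTDR and 9.65% in KODR. Among entries within a factor of 2 of its FPKM the median SD was 44.3%, 33.9% and 33.9% in these groups, and at most 0.208% of those entries had an SD as small. Whether the libraries truly agreed so closely was not tested, and with a t distribution the call was lost (adjusted p of 1.00).

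Of the zinc finger factors, Egr1 (chromosome 18, 34859823 to 34864984, plus strand) had a brain FPKM of 18.1 in WTAL (interval 5.40 to 30.9), 54.4 in KOAL (22.7 to 86.2), 44.4 in WTDR (25.8 to 62.9) and 40.8 in KODR (23.4 to 58.2). The last 3 groups overlapped widely and each exceeded WTAL, by 3.00-fold, 2.45-fold and 2.25-fold, with unadjusted p of 0.0160, 0.0285 and 0.0484 and none passing adjustment. Egr2 (chromosome 10, 67535475 to 67542188, plus strand, 2 exons), better known from myelinating Schwann cells and hindbrain patterning, had an FPKM of 0.308 in WTAL, 3.04 in KOAL, 1.46 in WTDR and 1.87 in KODR. The interval in WTAL reached from 0 to 1.22 and met all others, and the SE of its log2 differences from WTAL was 2.20 to 2.22.

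Arc (chromosome 15, 74669083 to 74672570, minus strand, 3 exons) was the most abundant of the neuronal members. Its brain FPKM was 24.6 in WTAL (interval 9.36 to 39.8), 66.3 in KOAL (26.6 to 106), 50.6 in WTDR (30.8 to 70.3) and 51.1 in KODR (31.7 to 70.6). The differences from WTAL were 1.43 ± 0.62, 1.04 ± 0.53 and 1.06 ± 0.52 (SE) on the log2 scale, with unadjusted p of 0.0211, 0.0485 and 0.0434, and none passed adjustment. WTDR and KODR differed from each other by 0.02 ± 0.39.

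Npas4 (chromosome 19, 4984355 to 4989971, minus strand, 8 exons) is induced almost only by calcium entry into neurons. Its brain FPKM was 1.09 in WTAL (interval 0 to 2.18), 4.86 in KOAL (1.84 to 7.88), 5.67 in WTDR (3.46 to 7.89) and 3.08 in KODR (1.32 to 4.83). WTDR stood apart from WTAL, at 5.22-fold (log2 2.38 ± 0.78, unadjusted p of 0.00220), and this did not pass adjustment (adjusted p of 0.504). As for Ier2, WTDR lay above KOAL, the reverse of Junb, although the intervals of these 2 groups overlapped for each of the 3 genes.

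Nr4a1 (chromosome 15, 101266846 to 101274792, plus strand) had a brain FPKM of 9.55 in WTAL (interval 2.73 to 16.4), 47.9 in KOAL (21.3 to 74.5), 26.3 in WTDR (16.6 to 36.0) and 17.9 in KODR (10.2 to 25.6). KOAL and WTDR both stood apart from WTAL, and KODR overlapped all 3. The difference between KOAL and WTAL was 5.01-fold, 2.33 ± 0.65 (SE) on the log2 scale, with an adjusted p of 0.152 that missed the threshold.

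Ier2, Fos and Dusp1 had the narrowest spans between brain groups, taken as the ratio of the highest group to the lowest. Ier2 (chromosome 8, 84661331 to 84662852, minus strand, 1 exon) was at 7.45 in WTAL, 7.77 in KOAL, 8.47 in WTDR and 9.92 in KODR, a span within every interval. It lies 314 kb from Junb on the same strand, yet Junb spanned 22.1 to 106 over the same groups. Dusp1 (chromosome 17, 26505590 to 26508519, minus strand, 4 exons) was at 5.73 in WTAL, 13.4 in KOAL, 9.76 in WTDR and 9.38 in KODR, with all intervals overlapping.

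Counted over the members, 10 of 10 were higher in KOAL than in WTAL in brain, where 59.0% of the 15264 entries tested were higher. Their median log2 difference was 1.51, against 0.13 over all entries. Junb was the 1 member called, beside 0.203% of all entries, and 5 of the 10 had an unadjusted p under 0.05 (Junb, Egr1, Arc, Npas4 and Nr4a1), beside 1.81% of all entries. In WTDR relative to WTAL again 10 of 10 were higher, against 44.4% of 15164 entries, with a median of 1.11 against -0.08. None was called, beside 0.224% of all entries, and the same 5 had an unadjusted p under 0.05, beside 2.22%. In KODR relative to WTAL 10 of 10 were higher, against 63.0% of 15180 entries, with a median of 1.01 against 0.15, and 0 were called beside 0.105%. There Fosb, Egr1 and Arc had an unadjusted p under 0.05, beside 0.646% of entries.

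**Figure D3:**
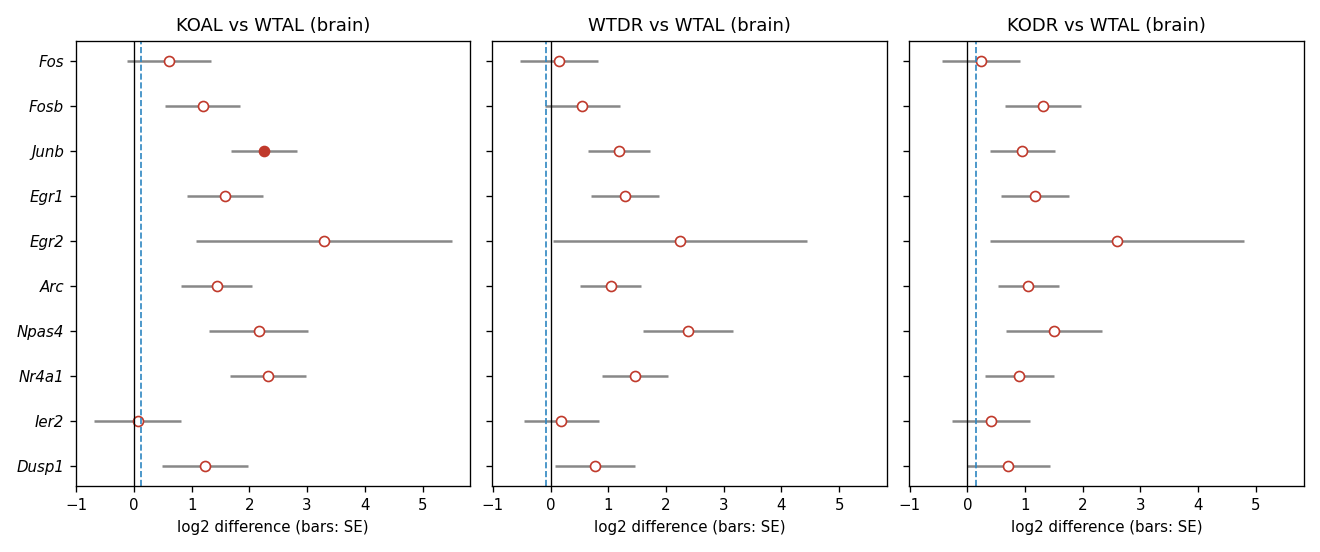
Log2 difference of each gene in brain from WTAL for KOAL, WTDR and KODR (points, with bars of 1 SE). Filled points are called at an FDR of 10%, the dashed line is the median of all entries tested, and every point lies above 0, with Junb in KOAL the 1 filled point.

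The comparison of KODR with WTDR set the groups labelled Irs1-/- and wild type side by side under restriction, and it gave a different picture from that under ad libitum feeding. Of the 10 members 5 were higher and 5 lower in KODR, with a median log2 difference of -0.02 against 0.23 over 15262 entries. Fosb was called, beside 1.16% of all entries, and was also the 1 member with an unadjusted p under 0.05, beside 7.50% of them. Npas4 was 0.542-fold (log2 -0.88 ± 0.50, unadjusted p of 0.0765) and Nr4a1 0.679-fold, and neither passed.

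When restriction was compared within Irs1-/- mice, 8 of 10 members were lower in KODR than in KOAL, with a median of -0.47 against 0.03 over 15349 entries. None was called, beside 0.365% of all entries, while Junb (0.405-fold, log2 -1.30 ± 0.43, unadjusted p of 0.00245) and Nr4a1 (0.373-fold, log2 -1.42 ± 0.51, unadjusted p of 0.00499) were under 0.05, beside 2.51% of entries. Fosb and Ier2 were the 2 members higher in KODR, by 0.12 ± 0.16 and 0.35 ± 0.60.

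The interaction, the genotype difference under restriction less that under ad libitum feeding, tests whether those pictures differ. It was negative for 9 of 10 members, with a median of -1.56 on the log2 scale against 0.10 over 15655 entries. Junb (-2.49 ± 0.68, adjusted p of 0.0764) and Nr4a1 (-2.88 ± 0.77, adjusted p of 0.0579) were called (Wald test), beside 0.396% of all entries. Npas4 (-3.04 ± 0.99) and Egr1 (-1.71 ± 0.79) had unadjusted p of 0.00206 and 0.0299, so that 4 members were under 0.05, beside 3.53% of entries. For Junb the genotype difference was 2.25 under ad libitum feeding and -0.23 under restriction, and for Nr4a1 it was 2.33 and -0.56. All 4 groups enter this test, WTAL among them. Both calls were lost with a t distribution (adjusted p of 1.00 for both).

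**Figure D4:**
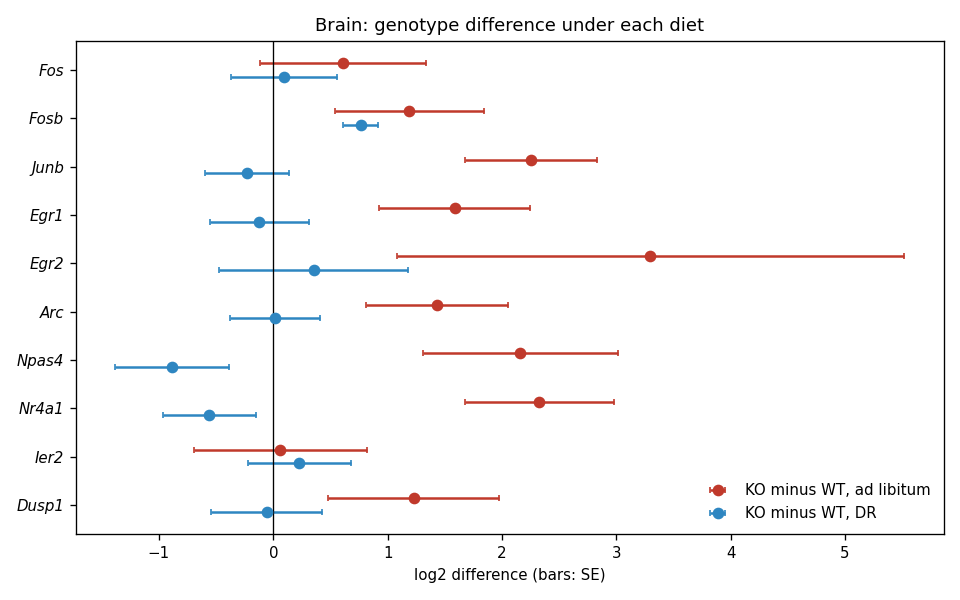
Log2 difference between KO and WT brain under ad libitum feeding (red) and under DR (blue) for each gene, with bars of 1 SE. The red points spread from 0.06 to 3.30, whereas the blue points lie between -0.88 and 0.76, and the pairs of Junb and Nr4a1 are those called in the interaction test.

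Markers of brain regions moved with the same groups, and their part in the results above was not tested. The 11 markers of excitatory neurons of cortex and hippocampus, regions in which Arc and Egr1 are known to be abundant, summed to 429 FPKM in WTAL, 726 in KOAL, 502 in WTDR and 553 in KODR. Of these 11 markers 10 were higher in KOAL than in WTAL, with a median log2 difference of 0.72. In WTDR 7 were higher and 4 lower than in WTAL, with a median of 0.06, and the interaction was positive for 4 and negative for 7, with a median of -0.68 and a range of -3.20 to 1.81. Tbr1, a cortical transcription factor, was at 6.45 in WTAL, 29.8 in KOAL, 22.1 in WTDR and 19.5 in KODR and had the highest level in KOAL. Fezf2, which specifies deep layer projection neurons, was the 1 gene of the list called in the interaction, at -3.20 ± 0.85 (adjusted p of 0.0579, Wald test). The 9 striatal markers were higher in KOAL and in WTDR than in WTAL in 9 of 9 cases each, with medians of 1.05 and 0.80, and summed to 375, 638, 592 and 433 in WTAL, KOAL, WTDR and KODR. Of all entries 59.0% were higher in KOAL and 44.4% in WTDR. The striatal interaction was negative for 9 of 9, with a median of -1.67, near that of the members (-1.56). None was called, beside 0.396% of all entries, and 3 had an unadjusted p under 0.05 (Wald test), beside 3.53%.

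Markers of other regions moved differently. The 8 midbrain dopamine markers summed to 97.5 FPKM in WTAL, 18.7 in KOAL, 9.92 in WTDR and 58.6 in KODR, and Pitx3 and Foxa1 were at 0 in WTDR. Slc6a3, the dopamine transporter, was at 16.1 in WTAL, 0.312 in KOAL, 0.104 in WTDR and 7.34 in KODR, and it was called lower in KOAL (adjusted p of 1.51e-05) and in WTDR (adjusted p of 4.25e-09) than in WTAL by the Wald test. The interaction was positive and called for 6 of the 6 dopamine markers tested, with a median of 7.13, beside 0.396% of all entries. Hypothalamic and pituitary markers summed to 191, 48.0, 131 and 220 in WTAL, KOAL, WTDR and KODR, with 2 of the 8 tested higher and 6 lower in KOAL than in WTAL. Cerebellar markers summed to 128, 161, 125 and 330 in the same order, with 5 of the 7 tested higher and 2 lower in KOAL than in WTAL and a median log2 difference of 0.04. The summed pan-neuronal markers ran from 2357 in WTDR to 3353 in KODR. Of these 9 markers 0 were called in any of the 3 comparisons with WTAL, beside 0.105% to 0.224% of all entries. In KOAL 1 was under an unadjusted p of 0.05, beside 1.81%. Single ones differed from WTAL by -1.09 (in WTDR) to 1.39 (in KODR) on the log2 scale, and 9 of 9 were higher in KODR. Glial markers summed to 5580, 5657, 2407 and 5512 in WTAL, KOAL, WTDR and KODR, and choroid plexus markers to 198, 77.9, 70.8 and 340. Red blood cell markers summed to 1032, 9908, 971 and 3476, highest in KOAL as most members were. In bulk tissue, more cells of a type and more RNA per cell cannot be told apart, nor can a different cut of the brain from a different level per neuron.

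**Figure D5:**
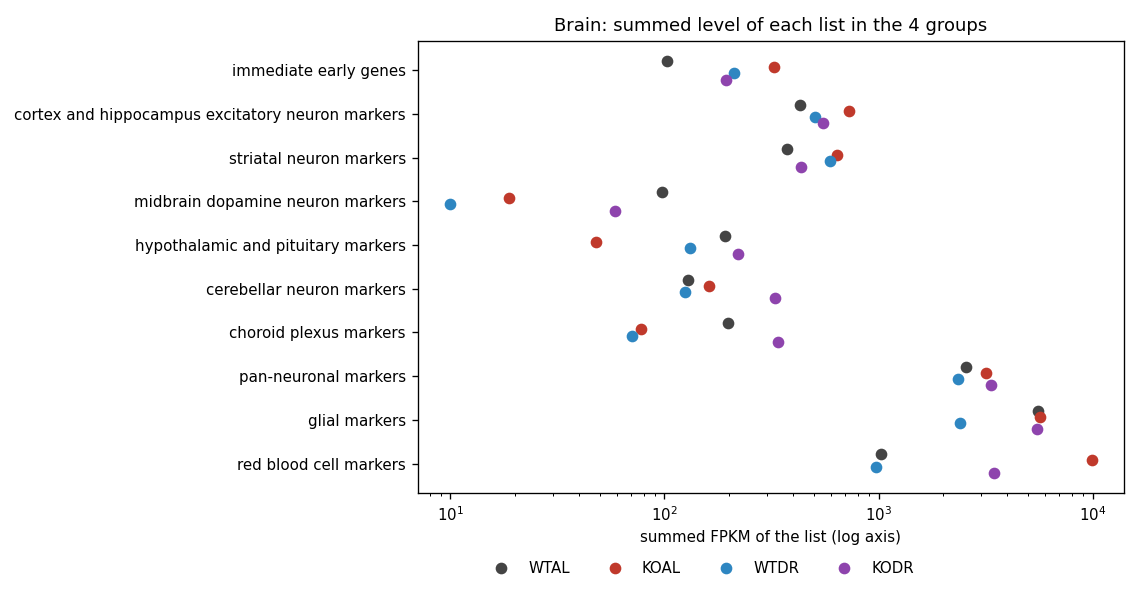
Summed FPKM (log axis) of the immediate early genes and of lists of region and cell type markers in the 4 brain groups. The immediate early genes are lowest in WTAL and highest in KOAL, as are the cortical and striatal lists, while the dopamine list is highest in WTAL. The pan-neuronal sum runs from 2357 in WTDR to 3353 in KODR, and the glial sum is lowest in WTDR.

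When each difference was taken relative to the median of the cortical and hippocampal markers, a setting added after the values were seen, KOAL exceeded WTAL for 8 of 10 members and Junb was no longer called, at 1.53 on the log2 scale. The 2 that turned negative were Fos (-0.11) and Ier2 (-0.66). Relative to the same markers, 10 of 10 members remained higher in WTDR than in WTAL. The median of these markers in WTDR was 0.06, less than the smallest member difference of 0.14 (Fos). No sign could therefore change there, and nothing is drawn from it. The striatal markers, with a median of 0.80 in WTDR, were not used for centring. The interactions of Junb (-1.81, adjusted p of 0.312) and Nr4a1 (-2.20, adjusted p of 0.234) were no longer called in the Wald test.

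The other rapid-response genes were more mixed in brain. Of the 27 other rapid-response genes with an entry 25 were tested, and 17 were higher and 8 lower in KOAL than in WTAL, with a median log2 difference of 0.55. Over all entries 59.0% were higher, with a median of 0.13. None was called, beside 0.203% of all entries, and 1 had an unadjusted p under 0.05, beside 1.81%. That was Egr4, a zinc finger factor of the Egr family, at 7.60 in WTAL, 23.9 in KOAL, 18.4 in WTDR and 19.7 in KODR. Trib1, Egr3, Ier3 and Fosl2 followed by p, all higher in KOAL. In WTDR 13 were higher and 12 lower than in WTAL, with a median of 0.06. There 0 were called, beside 0.224% of all entries, and Egr4 was again the 1 gene under 0.05, beside 2.22%. Over all entries 44.4% were higher there, with a median of -0.08. Jun, the partner of Fos in AP-1, lay 0.87 ± 0.56 lower in WTDR, the opposite side from Junb. The other rapid-response genes gave no call in the interaction either, beside 0.396% of all entries. Jun (1.67 ± 0.77) and Egr4 (-1.56 ± 0.77) were under an unadjusted 0.05 there, beside 3.53%.

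Targets that neuronal activity is known to raise later were mixed. Of 20 such effector genes 13 were higher and 7 lower in KOAL than in WTAL (median 0.35), and 8 higher and 12 lower in WTDR (median -0.08). In both 0 were called, beside 0.203% and 0.224% of all entries. In KOAL 1 and in WTDR 2 had an unadjusted p under 0.05, beside 1.81% and 2.22%. Of all entries 59.0% were higher in KOAL (median 0.13) and 44.4% in WTDR (median -0.08). Homer1, a postsynaptic scaffold whose short form is itself activity induced, was at 9.01 in WTAL, 26.2 in KOAL, 29.0 in WTDR and 19.2 in KODR, with unadjusted p of 0.0379 for KOAL and 0.00708 for WTDR. Plk2, a kinase that dampens synapses, was 1.78 ± 0.61 higher on the log2 scale in WTDR (unadjusted p of 0.00337). Bdnf, the neurotrophin best known as an activity target, was 1.09 ± 0.59 lower in WTDR.

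The peripheral tissues were examined for the same genes, to show how far the brain pattern extended to tissues that share the handling and the hour of death of a mouse. In liver 0 of 36 tests of members were called (6 members, 5 comparisons and the interaction), beside 0.301% of all tests in liver, and 6 had an unadjusted p under 0.05, beside 2.28%. Those were tests of Egr1 and Fos. Of the 6 members tested between KOAL and WTAL, 5 were higher in KOAL liver, with a median log2 difference of 1.15 against 0.16 over all entries. Egr1 was at 6.98 in WTAL, 20.8 in KOAL, 14.0 in WTDR and 4.92 in KODR, and KODR was 0.236-fold of KOAL (log2 -2.08 ± 0.63, adjusted p of 0.145 by the Wald test). Fos was at 1.07, 4.26, 1.72 and 0.547 in the same order. The order of WTAL and KOAL was thus that of brain, but KODR, which lay above WTAL for Egr1 in brain, was the lowest group in liver. The liver interaction was -3.08 ± 0.89 for Egr1 and -3.64 ± 1.73 for Fos (unadjusted p of 0.000509 and 0.0354, Wald test), and neither passed adjustment. It was positive for 2 and negative for 4 of the 6 members tested, with a median of -0.56 against -0.09 over all entries. Of all entries 44.4% had a positive liver interaction.

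In skeletal muscle 0 of 36 tests were called, beside 1.01% of all tests, and 0 were under an unadjusted 0.05, beside 4.09%. Fos was at 7.41 in WTAL, 6.54 in KOAL, 2.38 in WTDR and 3.44 in KODR, and WTAL was the highest group, not the lowest. Nr4a1, abundant in muscle, was at 54.3, 68.0, 70.6 and 96.4 with overlapping intervals. The muscle interaction was positive for 6 of the 6 members tested, against 54.9% of all entries, with a median of 0.49 against 0.08. In WTDR muscle the liver markers were high (Alb at 987 FPKM, against 5.52 in WTAL), which stands beside the muscle values of WTDR. In WAT 0 of 40 tests were called, beside 0.705% of all tests, and 1 was under an unadjusted 0.05, beside 3.50%. That was Dusp1, at 30.0 in WTAL, 15.6 in KOAL, 13.0 in WTDR and 14.3 in KODR. WTAL was highest for Dusp1 and Fos in WAT, again opposite to brain, and 6 of 7 members tested were lower in KOAL than in WTAL, with a median log2 difference of -0.50 against -0.06 over all entries. The WAT interaction was positive for 7 of the 7 members tested, against 57.9% of all entries, with a median of 0.97 against 0.13.

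Whether a brain difference differed from that of another tissue was tested directly. Fosb, Arc and Npas4 stayed under 1 FPKM in the other 3 tissues, so their folds there compare values near the floor. The tests were therefore read for members that reached 1 FPKM in a compared group of both tissues, a limit set after the values were seen. Over 93 such tests of 7 members (5 comparisons against each of 3 tissues) 0 were called, beside 0.0969% of all tests, and 17 had an unadjusted p under 0.05, beside 1.81%. With the minimum reached in either tissue there were 145 tests, of which 27 had an unadjusted p under 0.05, beside 1.60% of all tests, and 6 were called, beside 0.0805%. Those 6 were all of Fosb, which passed the minimum through brain alone, and nothing is drawn from them. For KOAL against WTAL, Junb was 2.60 ± 0.75 higher on the log2 scale in brain than in WAT (unadjusted p of 0.000509, adjusted p of 0.277) and 2.16 ± 0.82 higher than in muscle, and neither passed. The brain difference of Junb, Egr1 and Nr4a1 between KOAL and WTAL exceeded that of muscle with unadjusted p of 0.00827, 0.00875 and 0.0200, and none passed adjustment. It exceeded that of liver by 2.00 ± 0.76 for Junb, 0.0096 ± 0.96 for Egr1 and 0.93 ± 1.12 for Nr4a1, and none passed.

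Genes that respond to glucocorticoids and cellular stress were mostly lower in WTDR brain, where the members were higher. Of 16 such genes 12 were lower in WTDR than in WTAL, with a median log2 difference of -0.65. Of all entries 44.4% were higher, with a median of -0.08. The corresponding medians were -0.67 in liver, -0.60 in muscle and -1.18 in WAT, the last with 16 of 16 lower. Over all entries these were 0.03, -0.06 and -0.17. In brain 0 of 16 were called in WTDR relative to WTAL, beside 0.224% of all entries. There 3 were under an unadjusted 0.05 (Cdkn1a, Tsc22d3 and Hspa1a), beside 2.22%. Relative to WTDR, 13 of 16 were higher in KODR brain, against 64.9% of all entries, with a median of 0.82 against 0.23. Of the 16, 2 were called, beside 1.16% of all entries. These were Cdkn1a, a cell cycle inhibitor (2.16 ± 0.45, adjusted p of 0.000778, Wald test), and Hspa1a, an inducible heat shock protein (1.61 ± 0.41, adjusted p of 0.0174). Per1, which is both a clock gene and induced by stimuli, was at 17.8, 22.7, 19.8 and 27.3 in brain of WTAL, KOAL, WTDR and KODR.

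Clock genes, whose transcripts swing over the day, bear on the hour of sampling. In brain 0 of 16 were called in any of the 5 comparisons or the interaction, and 0 had an unadjusted p under 0.05. Over all entries 0.105% to 1.16% were called in these tests, and 0.646% to 7.50% were under 0.05. With 16 genes, counts of 0 cannot be told from those shares, and nothing is drawn from them. Relative to WTAL, 14 of 16 were higher in KOAL, with a median log2 difference of 0.41 against 0.13 over all entries. In WTDR 12 were higher (0.36 against -0.08) and in KODR 13 (0.61 against 0.15). Of all entries 59.0%, 44.4% and 63.0% were higher in these comparisons. The interaction was positive for 6 clock genes and negative for 10, with a median of -0.34. Summed FPKM of the 16 clock genes was 366, 283, 425 and 665 in liver of WTAL, KOAL, WTDR and KODR. In the same order it was 316, 342, 489 and 504 in muscle and 149, 165, 342 and 295 in WAT. Both restricted groups thus had higher sums than both groups fed ad libitum in each of these tissues. In liver 3 of the 15 tested were called between KODR and KOAL, beside 84 of all 13747 entries. Per3 (3.68 on the log2 scale, adjusted p of 0.00675) and Ciart (4.46, adjusted p of 0.0226) rose and Nfil3 fell by 2.41 (adjusted p of 0.000245, Wald test). Ciart was at 2.00 in WTAL, 1.08 in KOAL, 5.79 in WTDR and 23.9 in KODR liver, the group in which Egr1 and Fos were lowest. Whether the groups were culled at different hours was not tested.

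Beyond the members, the genes with the most similar pattern over the 16 groups, after the mean of each tissue was subtracted on the log2(FPKM + 0.1) scale, were Sipa1l1, Gm15899, Ncor1, Ubqln4 and Rbm22 among 11689 entries expressed in every tissue. Their Pearson r with the mean of the members was 0.917, 0.878, 0.871, 0.857 and 0.854. Among 16281 entries expressed in brain, Adcy2 came first at 0.925, followed by Sipa1l1, Gm15899, Gm14892 (0.873) and Ncor1. Sipa1l1, which encodes a postsynaptic protein, was at 24.0 in WTAL, 59.8 in KOAL, 44.5 in WTDR and 46.8 in KODR brain. Adcy2, an adenylyl cyclase, was at 12.3, 31.9, 22.6 and 19.9. The r of single members with their own mean ran from 0.325 for Ier2 to 0.854 for Junb, and these points share groups and libraries.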

How the data were processed

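Polyadenylated RNA of brain, liver, skeletal muscle and inguinal WAT was sequenced on an Ion Proton instrument (43 libraries in 16 groups, grouped by their labels). The authors trimmed the reads (cutadapt 1.5), aligned them to GRCm38 and ran Cuffdiff 2.2.1 with correction for reads that map to several places, and deposited 1 FPKM, 95% interval and status per gene and group. The deposited FPKM values pool the libraries of a group, so library depth is unknown, count-based intervals were not made, and a gene of low level has wide intervals. Of 42349 entries 873 join several genes, and no member is among them.

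Each value was given an SD of (upper bound - FPKM)/2. Log2 differences were put to a two-sided Wald test (delta method, normal reference). Benjamini-Hochberg adjustment ran over the entries of 1 tissue and comparison whose status was OK, whose FPKM exceeded 0 in each group and which reached an FPKM of 1 in some group. The p-values are those of the authors' intervals and cover the spread between 2 or 3 libraries, technical variation included. The paper gives 2 WTAL mice and 3 mice in each other group, though no label ties a library to a mouse. The test was tried on simulated data. Tests ran in Python 3.11.15 with scipy 1.17.1 for distributions, statsmodels 0.14.6 for the adjustment, pandas 2.3.3 and numpy 2.4.6 for tables, and plots in matplotlib 3.10.9. Gene positions are those of the table, exon numbers those of the principal transcripts in GENCODE M21 and start sites those of RefSeq.

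All 10 members are named. From each other list the up to 5 genes of lowest p in brain and called marker genes could be named, and the 5 entries most like the members by Pearson r. Per1, Bdnf, Jun in WTDR, Tbr1 and Alb were named after their values were seen. The members and lists were chosen with earlier results of these data known.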

Additional observations from a re-analysis of the deposited data

Results flagged for a closer look

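In brain, the genotype difference under restriction was 2.49 lower on the log2 scale than that under ad libitum feeding for Junb (-2.49) and 2.88 lower for Nr4a1 (-2.88), and both interactions passed an FDR of 10% in the Wald test.

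Groups had 1 pooled value each, so single libraries could not be looked at for outliers.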

How the results depend on the processing

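The counts of called members depended most on how the authors' interval was read. With the SD divided by the square root of the number of libraries, a smaller error, the brain count went from 1 to 5 in KOAL against WTAL (Junb, Egr1, Arc, Npas4 and Nr4a1), from 0 to 4 in WTDR against WTAL, from 1 to 3 in KODR against WTDR, from 0 to 2 in KODR against KOAL and from 2 to 5 in the interaction, while called entries over the whole table rose to between 1.41% and 18.5% in these tests. The same setting gave 5 calls in liver, 1 in muscle and 2 in WAT, and 6 members whose brain difference differed from another tissue. For this and the settings below, shares over all entries are given for brain alone. Nothing is therefore drawn from the counts in other tissues or between tissues. With a t distribution, under which 0 of all 15264 entries were called in KOAL against WTAL, 0 members were called there, in KODR against WTDR, in the interaction and between brain and another tissue, and at an FDR of 5% 0 in KOAL against WTAL and in the interaction. A pseudocount of 0.1 or of 1 gave 2 members in KOAL against WTAL (Junb and Nr4a1), 1 in WTDR against WTAL (Npas4), 2 and 3 calls in liver, and 3 members between brain and another tissue, while called entries rose to 2.17% and 1.81% of all in KOAL and to 2.16% and 1.89% in WTDR. Intervals that do not overlap were seen for 3 members in KOAL, 2 in WTDR and 1 in KODR against WTAL, beside 0.432%, 0.640% and 0.310% of all entries, and for 1 in liver. Without a minimum FPKM there were 6 calls in muscle and 1 in WAT, all of Fosb, and with a minimum of 5 FPKM 0 in KODR against WTDR and 0 between brain and another tissue, since Fosb was then not tested. The minimum reached in both tissues, added after the values were seen, likewise gave 0 between brain and another tissue, against 1 member (Fosb). Junb in KOAL was not called after median centring (0 members) or centring on the cortical markers (0), which also left 0 in the interaction.

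Of 60 member differences in brain, 4 changed sign on median centring: Ier2 in KOAL against WTAL (-0.068) and, in KODR against WTDR, Fos (-0.13), Arc (-0.21) and Ier2 (-0.00025). On centring by cortical markers 8 did: Fos (-0.11) and Ier2 (-0.66) in KOAL against WTAL, Fos (-0.099) and Arc (-0.18) in KODR against WTDR, Fos (-0.19) and Ier2 (-0.0095) in KODR against WTAL, and Fos (0.16) and Fosb (0.25) in the interaction. None of these was called. Leaving out joined entries changed no call. No paired analysis was possible because the table holds 1 pooled value per group, which also leaves no replicate to omit. The cause of these changes was not tested.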
